A study of Homo sapiens with 8 samples.

Results

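The SMAD genes encode the proteins that carry signals from receptors of the TGF-beta superfamily to the nucleus. SMAD1, SMAD2, SMAD3, SMAD4, SMAD5, SMAD6, SMAD7 and SMAD9 were examined together with SKI and SKIL, which encode nuclear corepressors of SMAD complexes. These 10 genes were taken by symbol from the 23193 genes listed in each of the deposited tables. The rule used symbols only, but the genes were chosen with earlier results of these data known. Transcription was measured by Precision Run-On sequencing (PRO-seq), which labels the RNA that engaged RNA polymerases are extending at that moment and therefore reads transcription rather than mRNA abundance. The cells were HCT116, a human colorectal carcinoma line, either wild-type (WT) or HIF1A-/-, the latter made by disrupting exons 3 and 4 of HIF1A, which encodes the oxygen-regulated subunit of hypoxia-inducible factor 1. WT and HIF1A-/- cells were each kept in normoxia or placed in 1% O2 for 90 min, and every culture also received the vehicle DMSO. Each of the 4 groups had 2 biological replicates, giving 8 libraries, and both HIF1A-/- groups came from this engineered derivative, so that the genotype comparison is also a comparison of these derivatives.

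Ligands of the TGF-beta and activin type lead receptors to phosphorylate SMAD2 and SMAD3, whereas bone morphogenetic proteins (BMPs) lead to phosphorylation of SMAD1, SMAD5 and SMAD9. Either set joins the common partner SMAD4 and enters the nucleus, and the pathway restrains itself through the inhibitory SMAD6 and SMAD7, which act at the receptors, and through SKI and SKIL. In colonic epithelium the TGF-beta arm is best known for limiting proliferation, and HCT116 cells are known to carry inactivating mutations in the receptor gene TGFBR2. Nascent transcription does not report the phosphorylation of SMAD proteins.

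Reads were counted by the authors in a window around the transcription start site (TSS) and in the gene body beyond it. The gene body totals were 18125234 to 23622392 reads per library and the TSS totals 2783581 to 5966348, the lowest TSS totals belonging to replicate 1 of HIF1A-/- normoxia and of HIF1A-/- hypoxia. All 10 genes passed the filter on low counts in both tables, among 16686 gene bodies and 15212 TSS regions tested. Levels are given as reads scaled to a fixed total per library (CPM). HIF1A itself had gene body values of 134 and 150 CPM (normoxia) and 129 and 164 CPM (hypoxia) in WT cells, and of 157 and 141 CPM (normoxia) and 172 and 166 CPM (hypoxia) in HIF1A-/- cells. The disrupted exons lie downstream of its start, so these reads do not check the genotype label. Of 8 colon epithelium markers, EPCAM (2.98 to 5.27 CPM per kilobase, or RPKM), KRT8 (6.55 to 9.99) and KRT18 (17.0 to 34.0) were transcribed in every library, whereas CDX1 and VIL1 stayed near 0 (at most 0.0141 and 0.0216). The summed RPKM of the colon list was 32.3 to 49.99, against at most 0.198 for fibroblast, 0.281 for endothelial and 0.521 for leukocyte markers.

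The sequences immediately upstream of 3 of these genes are shown because their gene bodies gave the 3 largest values in the comparisons that follow. Each is the 250 bases before the most upstream RefSeq start (RefSeq GRCh38.p14 windows, each found once in GRCh37), read 5′ to 3′ on the strand of the gene, with capitals marking matches to ACGTG or GCGTG on either strand, the core letters of the hypoxia response element. SMAD3 lies at chr15:67357690-67357939 (plus strand), SMAD9 at chr13:37494376-37494625 (minus strand) and SMAD7 at chr18:46477336-46477585 (minus strand), all in GRCh37.
SMAD3: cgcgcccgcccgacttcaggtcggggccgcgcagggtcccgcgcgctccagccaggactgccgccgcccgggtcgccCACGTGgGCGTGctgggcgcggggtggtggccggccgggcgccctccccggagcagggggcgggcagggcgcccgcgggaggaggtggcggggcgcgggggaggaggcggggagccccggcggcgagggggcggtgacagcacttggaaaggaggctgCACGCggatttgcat
SMAD9: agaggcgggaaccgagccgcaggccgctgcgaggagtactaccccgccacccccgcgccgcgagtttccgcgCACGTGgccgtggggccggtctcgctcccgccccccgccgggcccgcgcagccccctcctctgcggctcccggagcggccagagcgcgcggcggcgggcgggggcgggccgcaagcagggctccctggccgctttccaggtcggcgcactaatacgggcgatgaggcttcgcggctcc
SMAD7: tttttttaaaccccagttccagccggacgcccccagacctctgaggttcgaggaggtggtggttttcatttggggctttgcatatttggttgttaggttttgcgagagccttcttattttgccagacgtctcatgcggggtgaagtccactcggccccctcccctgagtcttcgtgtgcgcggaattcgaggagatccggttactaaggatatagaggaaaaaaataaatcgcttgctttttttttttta
The SMAD3 window held 4 matches and the SMAD9 window 2, whereas the SMAD7 window held 0. The 2 matches of SMAD9, and 2 of the 4 of SMAD3, are a single palindrome (CACGTG) read on both strands. Among the 9 genes with a RefSeq window, 6 held at least 1 match, and 43.2% of all 35116 windows of this length did. None of the 9 held CAGACA, a SMAD-binding motif that 13.6% of all windows held. Only this exact sequence was searched for, on either strand, and other SMAD-binding sequences were not. Only the most upstream window of each gene was counted here, whereas the background took every window, including several of the same gene. Windows left out include one of SMAD7 (chr18:46475704-46475953) with 2 matches to ACGTG or GCGTG. Another, of SMAD3 (chr15:67430109-67430358), held 1 match to CAGACA. These matches describe letters only and say nothing about occupancy.

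The counted regions did not always begin at those starts. For SMAD3 the deposited start was position 67458493 of chromosome 15, which is 102.392 kb downstream of the most upstream annotated start, and its gene body (chr15:67459493-67487533, plus strand) covered 28041 bp at the 3′ end of the gene. Reads there come from long and short SMAD3 transcripts alike and cannot be told apart. The deposited start of SMAD7 (gene body chr18:46446222-46476080, minus strand) was 254 bp downstream of its nearest annotated start, and that of SMAD9 (chr13:37418967-37493408, minus strand) was within 34 bp of it. SKIL (chr3:170078411-170114637, plus strand) was counted from 2.281 kb downstream of its most upstream start.

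Levels of different genes were compared per length, as gene body RPKM. In WT normoxia the mean over the 2 libraries was highest for SKI (3.31 ± 0.0936, SD), followed by SMAD3 (2.77 ± 0.600), SMAD4 (2.36 ± 0.0013), SMAD5 (1.90 ± 0.0456) and SMAD2 (1.86 ± 0.189). SMAD1 (0.917), SMAD6 (0.802) and SKIL (0.699) formed a lower set, with SMAD7 (0.326) and SMAD9 (0.132) last. The libraries of SMAD3 and SMAD4, of SMAD5 and SMAD2, and of SMAD1, SMAD6 and SKIL overlapped with their neighbours in this order, so only the steps between these sets were free of overlap. The step from SKI (3.24 in its lower library) to SMAD3 (3.20 in its higher library) was narrow. The median of all tested gene bodies was 1.29, placing SKI at percentile 79.8 and SMAD9 at percentile 16.4. SMAD9 was also last in the other groups, whereas SMAD7 moved from rank 9 in WT cells to rank 7 in HIF1A-/- cells in either oxygen condition, and SMAD3 ranked above SKI in WT hypoxia.

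**Figure D1:**
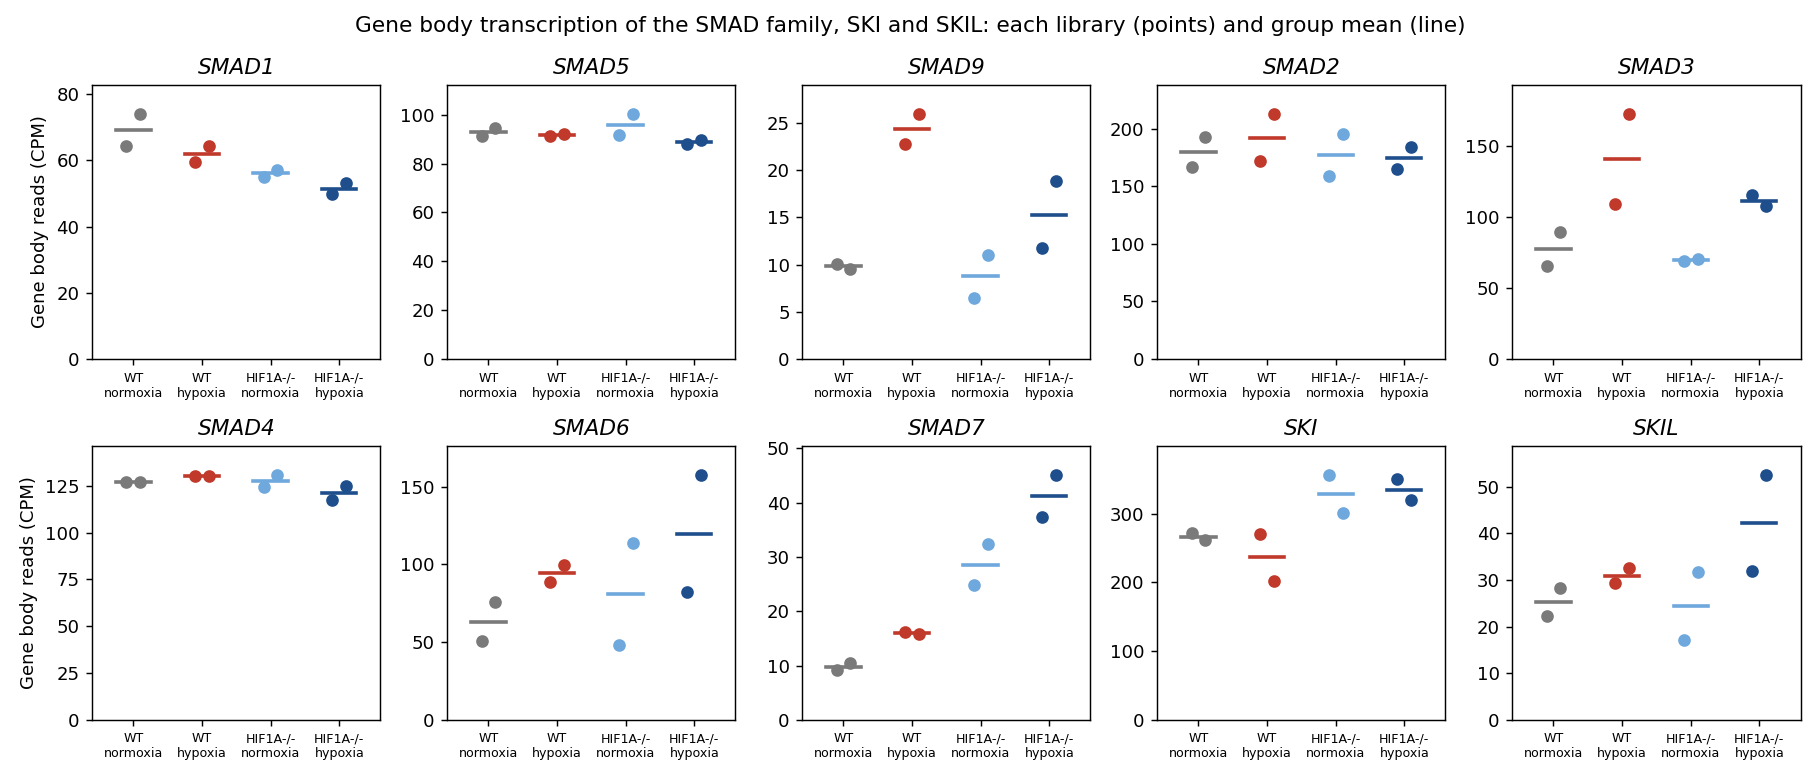
Gene body CPM (y axis, from 0, with its own scale for each gene) of the 10 genes in the 4 groups (x axis). Points are single libraries and lines are means of 2, and SMAD7 is the gene whose HIF1A-/- libraries (24.8 to 45.1) all lie above its WT libraries (9.08 to 16.1).

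The first comparison asked how acute hypoxia affected these genes in WT cells. SMAD9, SMAD3 and SMAD7 had the largest differences between hypoxia and normoxia, of 2.42-fold, 1.78-fold and 1.61-fold, and the remaining genes differed by at most 1.46-fold. At an FDR of 10%, edgeR's quasi-likelihood test, adjusted over all genes tested, called 0 of the 10 in either direction. The background share of gene bodies called was 0.431% higher and 0% lower. At an unadjusted p under 0.05 there were 3, SMAD9, SMAD7 and SMAD3, all higher in hypoxia. DESeq2 called 2, SMAD9 and SMAD3 (background 1.04% higher and 0.00599% lower), and with the replicate number as a block 4, SMAD9, SMAD7, SMAD3 and SMAD6 (background 4.66% higher and 2.47% lower). edgeR with the replicate block called SMAD9, SMAD7 and SMAD3, the 3 with the smallest p, as higher, beside 3.73% of all gene bodies called higher and 1.77% lower. The median log2 difference of the 10 was 0.16, against -0.02 over all gene bodies tested.

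Among the BMP-responsive SMADs, SMAD9 had gene body values of 10.1 and 9.54 CPM in WT normoxia and 22.8 and 25.9 CPM in WT hypoxia. Both hypoxic libraries lay above both normoxic ones, from 209 and 173 reads up to 433 and 612. The log2 difference was 1.28 ± 0.28 (SE), with an edgeR adjusted p of 0.26 that became 0.020 with the replicate block. SMAD1 had 64.4 and 73.9 CPM in normoxia and 59.4 and 64.2 in hypoxia. Its log2 difference was -0.19 ± 0.13. SMAD5 stayed between 91.2 and 94.5 CPM in all 4 WT libraries, with a log2 difference of -0.05 ± 0.11. The 3 BMP-responsive genes thus had values on either side of 0.

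Of the TGF-beta-responsive SMADs, SMAD3 had 65.8 and 89.7 CPM in WT normoxia and 109.6 and 172.5 CPM in WT hypoxia. The groups did not overlap, but the hypoxic libraries differed widely, and replicate 2 held the highest value of the series. The log2 difference was 0.83 ± 0.22 (edgeR adjusted p = 0.57, or 0.069 with the replicate block), and it was 0.49 without replicate 2 of WT hypoxia. SMAD2 ranged from 167 to 193 CPM in normoxia and from 172 to 213 in hypoxia, and its groups overlapped. The common partner SMAD4 had 127.0 and 127.1 CPM in normoxia and 130.3 and 130.5 in hypoxia, which placed its groups narrowly apart in CPM. Its fitted log2 difference was only 0.01 ± 0.11.

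SMAD7, which blocks receptor access of SMAD2 and SMAD3 and recruits ubiquitin ligases, had 9.08 and 10.4 CPM in WT normoxia and 16.1 and 15.9 CPM in WT hypoxia. Each pair was tight and the pairs were separate, with a log2 difference of 0.69 ± 0.17 (edgeR adjusted p = 0.45, or 0.043 with the replicate block). SMAD6, the inhibitor that acts mainly on the BMP arm, had 50.6 and 75.6 CPM in normoxia and 88.5 and 99.7 in hypoxia, a log2 difference of 0.55 ± 0.39. SKIL had 22.4 and 28.2 CPM in normoxia and 29.3 and 32.5 in hypoxia, with a log2 difference of 0.26 ± 0.29. SKI had 271.5 and 260.9 CPM in normoxia and 270.9 and 202.4 in hypoxia, so that its groups overlapped. In CPM, 6 of the 10 genes, SMAD4 narrowly among them, had both hypoxic libraries above both normoxic ones. SMAD1 alone, 1 gene, had both below, where 19.8% (above) and 17.3% (below) of all gene bodies did.

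In HIF1A-/- cells, edgeR again called 0 of the 10 genes, with or without the replicate block, beside 0% of all gene bodies in each direction without it and 0.0300% higher and 0.00599% lower with it. At an unadjusted p under 0.05 there were 4, all higher in hypoxia, namely SKIL, SMAD9, SMAD3 and SMAD7. DESeq2 called 0 (background 0.0120% higher and 0.0360% lower), and DESeq2 with the replicate block called SKIL, SMAD9 and SMAD3 (background 0.465% higher and 0.711% lower). Both hypoxic libraries lay above both normoxic ones for 4 genes and below them for 2, where 14.4% and 9.15% of all gene bodies did. Their median log2 difference was 0.24, against 0.00 over all gene bodies tested.

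SKIL had 17.1 and 31.6 CPM in HIF1A-/- normoxia and 31.9 and 52.5 CPM in HIF1A-/- hypoxia. The lower hypoxic library barely exceeded the higher normoxic one, and in each group replicate 2 was the higher. Its log2 difference was 0.76 ± 0.29 (edgeR adjusted p = 1.0, or 0.21 with the replicate block). SMAD9 had 6.5 and 11.02 CPM in normoxia and 11.7 and 18.8 CPM in hypoxia, a log2 difference of 0.76 ± 0.28 (edgeR adjusted p with the replicate block 0.29). SMAD3 had 68.8 and 70.2 CPM in normoxia and 115.3 and 107.5 CPM in hypoxia, which were tight and well separated pairs, with a log2 difference of 0.64 ± 0.22 (edgeR adjusted p with the replicate block 0.33).

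SMAD7 had 24.8 and 32.4 CPM in HIF1A-/- normoxia and 37.3 and 45.1 CPM in HIF1A-/- hypoxia, a log2 difference of 0.49 ± 0.17 (edgeR adjusted p with the replicate block 0.25). SMAD6 ranged widely in both conditions, with 48.1 and 113.8 CPM in normoxia and 81.9 and 157.4 in hypoxia. Replicate 2 of SMAD6 was the higher library in every group, as it also was for SKIL. SMAD1 and SMAD5 were the genes with both hypoxic libraries lower, with log2 differences of -0.17 and -0.15. None of these values passed the test.

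Whether the response to hypoxia differed between genotypes was tested by the interaction, WT response minus HIF1A-/- response. None of the 10 genes was called by edgeR or by DESeq2, with or without the replicate block, and 0 had an unadjusted p under 0.05 in the fit without the block, beside 0.0539% of all gene bodies called higher by edgeR and 0.408% by DESeq2, or 0.384% and 0.793% with the block. SMAD9 had the largest interaction, 0.51 ± 0.39 on the log2 scale, followed in size by SKIL at -0.49 ± 0.41. SMAD7 had 0.20 ± 0.24 and SMAD3 0.19 ± 0.32, the last changing sign when replicate 2 of WT hypoxia was left out (-0.15). With standard errors of this size, neither equal nor unequal responses were shown.

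**Figure D2:**
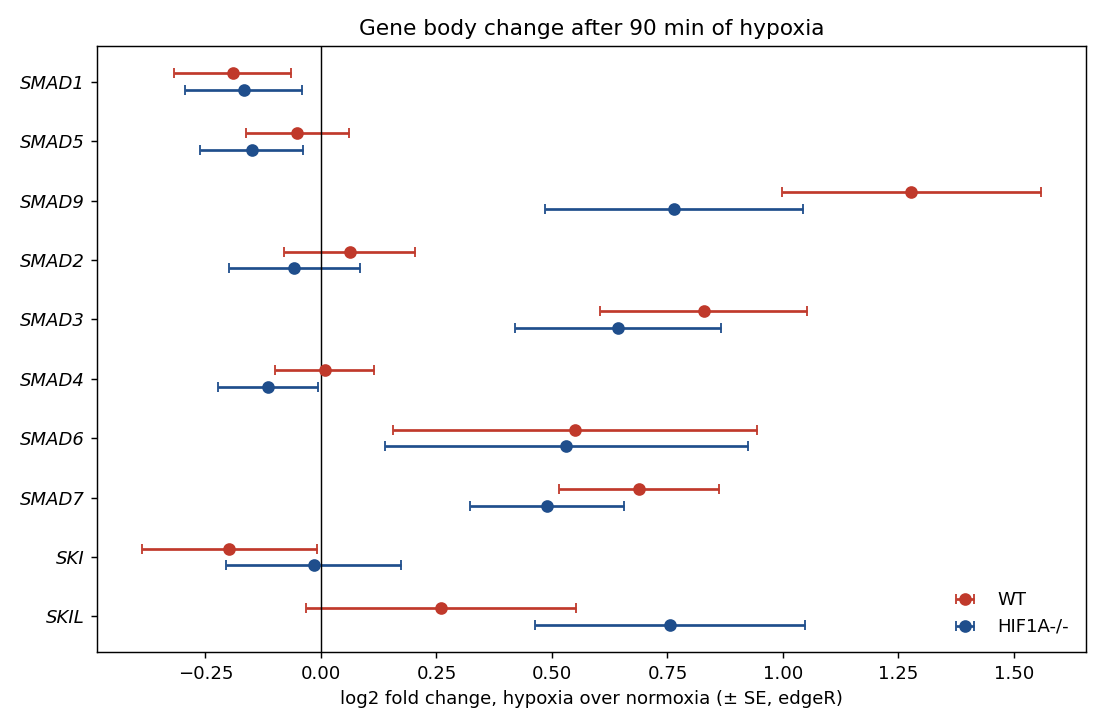
Gene body log2 difference between hypoxia and normoxia (x axis) for each gene (y axis) in WT and in HIF1A-/- cells, with edgeR standard errors as bars. SMAD9 and SMAD3 lie to the right of 0 in both genotypes (1.28 and 0.83 in WT, 0.76 and 0.64 in HIF1A-/-), and the bars of the genotypes overlap for all 10 genes.

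The clearest difference was between genotypes. SMAD7 transcription was 2.93-fold higher in HIF1A-/- than in WT cells in normoxia and 2.55-fold higher in hypoxia, and it was the only one of the 10 genes called in either condition by edgeR without the replicate block. The log2 differences were 1.55 ± 0.17 (edgeR adjusted p = 0.0062) and 1.35 ± 0.17 (edgeR adjusted p = 0.0078). All 4 HIF1A-/- libraries, at 24.8 to 45.1 CPM, exceeded all 4 WT libraries, at 9.08 to 16.1 CPM, on 546 to 914 reads against 188 to 375. Each of the 14 alternative settings called SMAD7 in both conditions, with the log2 difference between 1.41 and 1.72 in normoxia and between 1.24 and 1.45 in hypoxia.

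The background share of gene bodies called was 0.725% higher and 1.05% lower in HIF1A-/- cells in normoxia and 1.47% higher and 2.79% lower in hypoxia. The median log2 difference of the 10 genes was -0.01 in normoxia and -0.09 in hypoxia, against -0.01 and 0.00 over all gene bodies. With the replicate block, SKI was also called higher and SMAD9 and SMAD1 lower in hypoxia, beside background shares of 13.1% higher and 15.1% lower. DESeq2 with the block called SMAD7, SKI and SMAD9 (background 11.0% and 12.2%). In normoxia SMAD7 alone was called with the block, beside 3.93% higher and 6.39% lower.

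SKI had 356.0 and 300.7 CPM in HIF1A-/- normoxia and 349.7 and 319.5 CPM in HIF1A-/- hypoxia, all above the WT range of 202.4 to 271.5. The log2 difference was 0.31 ± 0.19 in normoxia and 0.49 ± 0.19 in hypoxia (edgeR adjusted p = 0.27, or 0.013 with the replicate block). SMAD9, in contrast, was lower in HIF1A-/- than in WT hypoxia without overlap, a log2 difference of -0.69 ± 0.27 (edgeR adjusted p = 0.28, or 0.038 with the replicate block), whereas in normoxia its groups overlapped (-0.18 ± 0.28).

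SMAD1 was the other gene with separate groups in both conditions. Its HIF1A-/- libraries had 55.1 and 57.2 CPM in normoxia and 49.7 and 53.1 CPM in hypoxia, each below the WT libraries of the same oxygen condition. The log2 differences were -0.30 ± 0.13 in normoxia (edgeR adjusted p = 0.53, or 0.11 with the replicate block) and -0.28 ± 0.13 in hypoxia (0.34, or 0.078 with the block). SMAD3 (-0.16 and -0.35) and SKIL (-0.07 and 0.43) did not pass the test, and SMAD2, SMAD4 and SMAD5 stayed within 117 to 131 CPM (SMAD4), 87.9 to 100.2 CPM (SMAD5) and 159 to 213 CPM (SMAD2) over all 8 libraries. Non-overlapping groups were seen for 2 genes higher and 1 lower in normoxia, where 16% and 17.0% of all gene bodies did so, and for 2 higher and 4 lower in hypoxia, where 23.6% and 22.6% did.

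**Figure D3:**
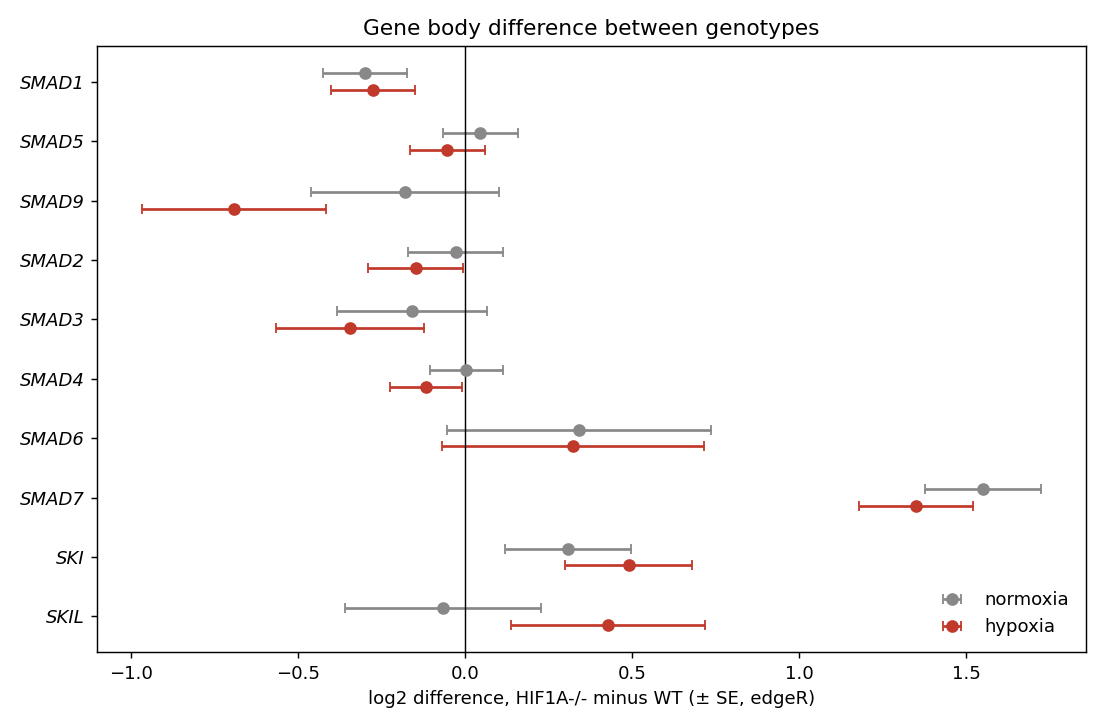
Gene body log2 difference between HIF1A-/- and WT cells (x axis) for each gene (y axis) in normoxia and in hypoxia, with edgeR standard errors as bars. SMAD7 lies farthest from 0, at 1.55 and 1.35, and SKI (0.31 and 0.49) and SMAD1 (-0.30 and -0.28) lie on the same side of 0 in both conditions.

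At the TSS windows, counts of several members were low, and SMAD7 had 12 and 8 reads (normoxia) and 6 and 7 reads (hypoxia) in WT cells, against 7 and 16 (normoxia) and 17 and 27 (hypoxia) in HIF1A-/- cells. Its hypoxic groups did not overlap and its normoxic groups did. The counted window of SMAD7 leaves out its nearest annotated start, which lies 254 bp upstream of the counted start. In hypoxia the log2 difference between genotypes was 2.26 ± 0.52 (edgeR adjusted p = 0.085, or 0.0078 with the replicate block), and SMAD7 was the 1 gene of the 10 called, beside background shares of 0.440% higher and 0.664% lower. DESeq2 called 0 of the 10 (adjusted p = 0.16 for SMAD7, background 1.09% higher and 1.04% lower), and leaving out any 1 of 6 libraries, all 4 WT libraries and both of HIF1A-/- hypoxia, ended the edgeR call, with adjusted p up to 0.66. In normoxia the log2 difference was 0.41 ± 0.53, and edgeR called 0 of the 10 at the TSS (1 at an unadjusted p under 0.05, SKI, and 0 by DESeq2), beside 0.224% of all TSS regions called higher and 0.434% lower. Groups of the genotypes did not overlap for 4 genes higher and 1 lower in normoxia, where 16.4% and 18.5% of all TSS regions did so, and for 4 higher and 2 lower in hypoxia, where 25.3% and 22.7% did.

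SKI had TSS values of 40.6 and 48.5 CPM (normoxia) and 37.2 and 31.0 CPM (hypoxia) in WT cells, against 104.2 and 51.5 CPM (normoxia) and 92.3 and 47.2 CPM (hypoxia) in HIF1A-/- cells. Both HIF1A-/- groups were above WT, but their replicate 1 libraries were far above replicate 2, and these are the libraries with the fewest TSS reads. The log2 difference was 0.81 ± 0.35 in normoxia (edgeR adjusted p = 0.58, or 0.093 with the replicate block) and 1.01 ± 0.35 in hypoxia (0.25, or 0.0096 with the block), and it dropped to 0.22 and 0.45 without replicate 1 of the HIF1A-/- group concerned. SMAD1 had the same arrangement in hypoxia, with 7.78 and 10.2 TSS CPM in WT and 21.9 and 14.7 in HIF1A-/- cells (log2 0.99 ± 0.40, edgeR adjusted p = 0.31, or 0.071 with the block). With the block, edgeR called 1 gene in normoxia (SKI, background 2.24% higher and 2.04% lower) and 3 in hypoxia (SMAD7, SKI and SMAD1, background 7.47% and 6.97%), and DESeq2 with the block called SMAD7 and SKI in hypoxia (background 3.89% and 3.67%). The part of these libraries' low TSS depth in the SKI and SMAD1 values was not tested.

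Hypoxia gave no call at the TSS among the 10 genes in either genotype, by edgeR with or without the replicate block or by DESeq2. In WT cells the background was 0.0460% of TSS regions called higher by edgeR, 0.789% higher and 0.217% lower with the block, and 0.0986% higher by DESeq2, and in HIF1A-/- cells it was 0% by edgeR, 0.00657% higher with the block and 0% by DESeq2. The groups did not overlap for 1 gene higher and 4 lower in WT cells (background 15.3% and 19.5%) and for 5 higher and 0 lower in HIF1A-/- cells (12.5% and 11.2%). At an unadjusted p under 0.05 there were 0 in WT and 1 in HIF1A-/- cells, SMAD3. The TSS interaction gave 0 calls by edgeR (background 0.00657% higher) and by DESeq2 (0.0197%), with 1 gene, SMAD7 (lower), at an unadjusted p under 0.05. SMAD3 had 53 and 60 TSS reads (normoxia) and 84 and 132 (hypoxia) in WT cells, against 54 and 50 (normoxia) and 108 and 94 (hypoxia) in HIF1A-/- cells, the hypoxic libraries holding more reads in each genotype. Its log2 difference was 0.56 ± 0.36 in WT and 0.90 ± 0.36 in HIF1A-/- cells. SMAD9 had 2 to 26 reads per library, with 22 and 2 in the pair of WT normoxia, so that its TSS values cannot be read as a level.

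The pausing index, the read density of the TSS window over that of the gene body, separates genes where polymerase is held near the start from those where it is spread along the gene. Its median over the 14494 genes tested in both regions was 9.29 to 11.5 in 6 libraries and 5.83 and 6.66 in replicate 1 of HIF1A-/- normoxia and hypoxia. SMAD6 had the highest index of the 10 genes in WT normoxia, at 29.6 and 19.9, and SMAD4 lay near the median of all genes at 12.8 and 9.50. SMAD3 stayed between 1.65 and 2.34 in all 8 libraries, the narrowest range relative to its level next to SKI at 4.56 to 5.72, and the counted start of SMAD3 lies inside the gene.

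SMAD7 had pausing indices of 3.46 and 2.31 (normoxia) and 1.06 and 1.01 (hypoxia) in WT cells, and of 0.695 and 1.27 (normoxia) and 1.22 and 1.6 (hypoxia) in HIF1A-/- cells. WT normoxia thus stood above every other group, although each value rested on at most 27 TSS reads. The counted start of SMAD7 lies 254 bp downstream of its nearest annotated start, which its TSS window leaves out. Its index therefore does not measure polymerase held next to that start. The difference between WT hypoxia and WT normoxia had an unadjusted p of 0.0057 and an edgeR adjusted p of 0.87 (0.24 with the replicate block), and none of the 10 genes was called for the pausing index in either genotype or for the interaction. Over all genes, 0.186% were called lower and 0.00690% higher in WT hypoxia (0.421% and 0.0621% with the block), 0% in HIF1A-/- hypoxia, and 0.0207% lower for the interaction (0.138% lower and 0.00690% higher with the block).

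**Figure D4:**
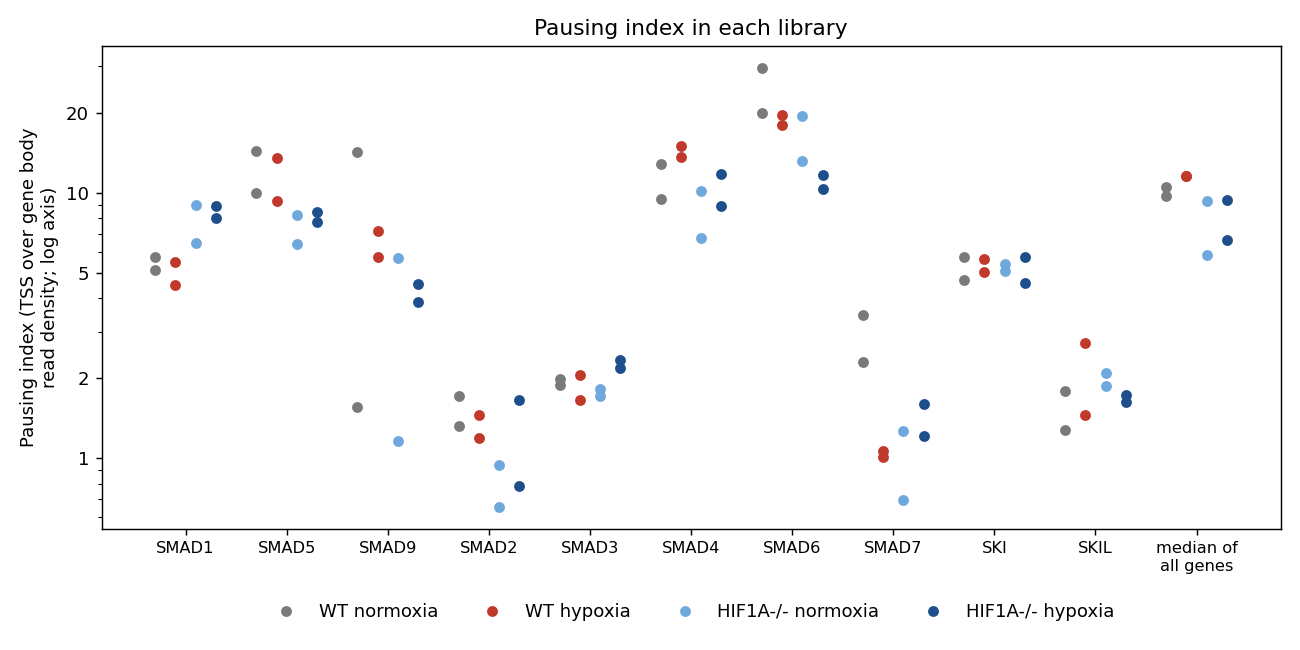
Pausing index (y axis, log scale) of the 10 genes and the median over all genes tested (x axis), as TSS read density over gene body read density, with each point a library coloured by group. SMAD7 is highest in the WT normoxia libraries (3.46 and 2.31), and the replicate 1 libraries of HIF1A-/- cells belong to the libraries with the lowest medians over all genes (5.83 and 6.66).

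The surrounding pathway was examined through a list of 117 ligands, receptors, extracellular antagonists, regulators, nuclear partners and target genes, of which 103 were tested. In hypoxia against normoxia, edgeR called 0 of these in WT and 0 in HIF1A-/- cells, and 0 for the interaction. With the replicate block, WT cells had 4 called higher, the ligands GDF15 and TGFB2, the latent TGF-beta binding protein LTBP3 and the deubiquitinase USP9X. With the same block 3 were called lower, the ligand BMP4, its target MSX1 and the phosphatase CTDSPL. These are 3.88% and 2.91% of the tested list, where 3.73% and 1.77% of all gene bodies were called, so the share called higher was close to the background.

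Between genotypes, BMP4 and several BMP target genes were higher in HIF1A-/- cells. Without the block, edgeR called 4 list genes higher and 1 lower in normoxia (3.88% and 0.971% of those tested, against 0.725% and 1.05% of all gene bodies), and 4 higher and 2 lower in hypoxia (3.88% and 1.94%, against 1.47% and 2.79%). DESeq2 called 10 higher and 1 lower in normoxia (9.71% and 0.971%, against 1.86% and 2.06%), and 12 higher and 2 lower in hypoxia (11.7% and 1.94%, against 3.18% and 4.83%). With 1 list gene called lower in normoxia and 2 in hypoxia, that share is too coarse to set against the background. BMP4, a ligand of the BMP arm, had 70.9 and 72.9 CPM (normoxia) and 53.4 and 44.8 CPM (hypoxia) in WT cells, against 236 and 211 CPM (normoxia) and 213 and 202 CPM (hypoxia) in HIF1A-/- cells. Every HIF1A-/- library lay far above every WT library. The log2 difference was 1.64 ± 0.16 in normoxia (edgeR adjusted p = 0.0030) and 2.07 ± 0.16 in hypoxia (edgeR adjusted p = 0.0012), and all 14 alternatives called it in each condition.

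The homeobox genes MSX1 and MSX2, BMP targets in many tissues, were also called higher in both conditions. MSX1 had a log2 difference of 1.45 ± 0.23 in normoxia (edgeR adjusted p = 0.031) and 1.97 ± 0.24 in hypoxia (0.0066). MSX2 had 1.98 ± 0.30 (0.023) and 2.03 ± 0.30 (0.014). ID2, an inhibitor of helix-loop-helix transcription factors and a BMP target, was called in normoxia at 1.70 ± 0.36 (0.089) and not in hypoxia at 1.17 ± 0.35 (0.16). The 9 tested BMP targets of 11 listed had a median log2 difference of 1.16 in normoxia and 1.14 in hypoxia, against -0.01 and 0.00 over all gene bodies, and the TGF-beta targets had medians of 0.30 and -0.01. Without the block, edgeR called 3 of the 9 higher in normoxia and 2 in hypoxia, and 0 lower. These were 33.3% and 22.2%, against 0.725% and 1.47% of all gene bodies. The list was chosen with earlier results of these data known. In hypoxia with the replicate block, edgeR called 4 BMP targets higher and 1 lower. These were 44.4% and 11.1% of those tested, against 13.1% and 15.1% of all gene bodies.

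RUNX2, a transcription factor that binds SMADs, was lower in HIF1A-/- cells, with 1.41 and 2.41 CPM in normoxia and 1.28 and 2.52 in hypoxia, against 7.78 and 11.3 and then 7.16 and 15.8 in WT cells. Its log2 difference was -2.33 ± 0.48 in normoxia (edgeR adjusted p = 0.086) and -2.62 ± 0.49 in hypoxia (0.036). In hypoxia alone, SNAI1, a TGF-beta-induced repressor of epithelial genes, was called higher at 0.88 ± 0.19 (0.060), and NEDD4L, a ubiquitin ligase for activated SMAD2 and SMAD3, lower at -0.98 ± 0.22 (0.065). The calls of ID2 and RUNX2 in normoxia and of SNAI1 and NEDD4L in hypoxia were each lost under at least 5 of the 14 alternatives. The normoxic calls of MSX1 and MSX2 were lost without either library of WT normoxia, the hypoxic call of MSX2 without replicate 2 of WT hypoxia, and the hypoxic call of RUNX2 without that library or without replicate 1 of HIF1A-/- hypoxia (edgeR adjusted p up to 0.24).

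edgeR without the block called none of the 13 receptors tested in any of these comparisons. DESeq2 called 1, ACVRL1, a type I receptor of the BMP arm, higher in HIF1A-/- than in WT hypoxia (log2 1.43 ± 0.44 in edgeR, adjusted p = 0.18 by edgeR and 0.087 by DESeq2). With the block, edgeR called ACVRL1 higher and ACVR2A, ACVR2B and ENG lower in that comparison. TGFBR1 ranged from 37.2 to 50.5 CPM, TGFBR2 from 304 to 429 and TGFBR3 from 92.5 to 112 over the 8 libraries, with log2 differences between -0.11 and 0.17 in every comparison of 2 groups.

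**Figure D5:**
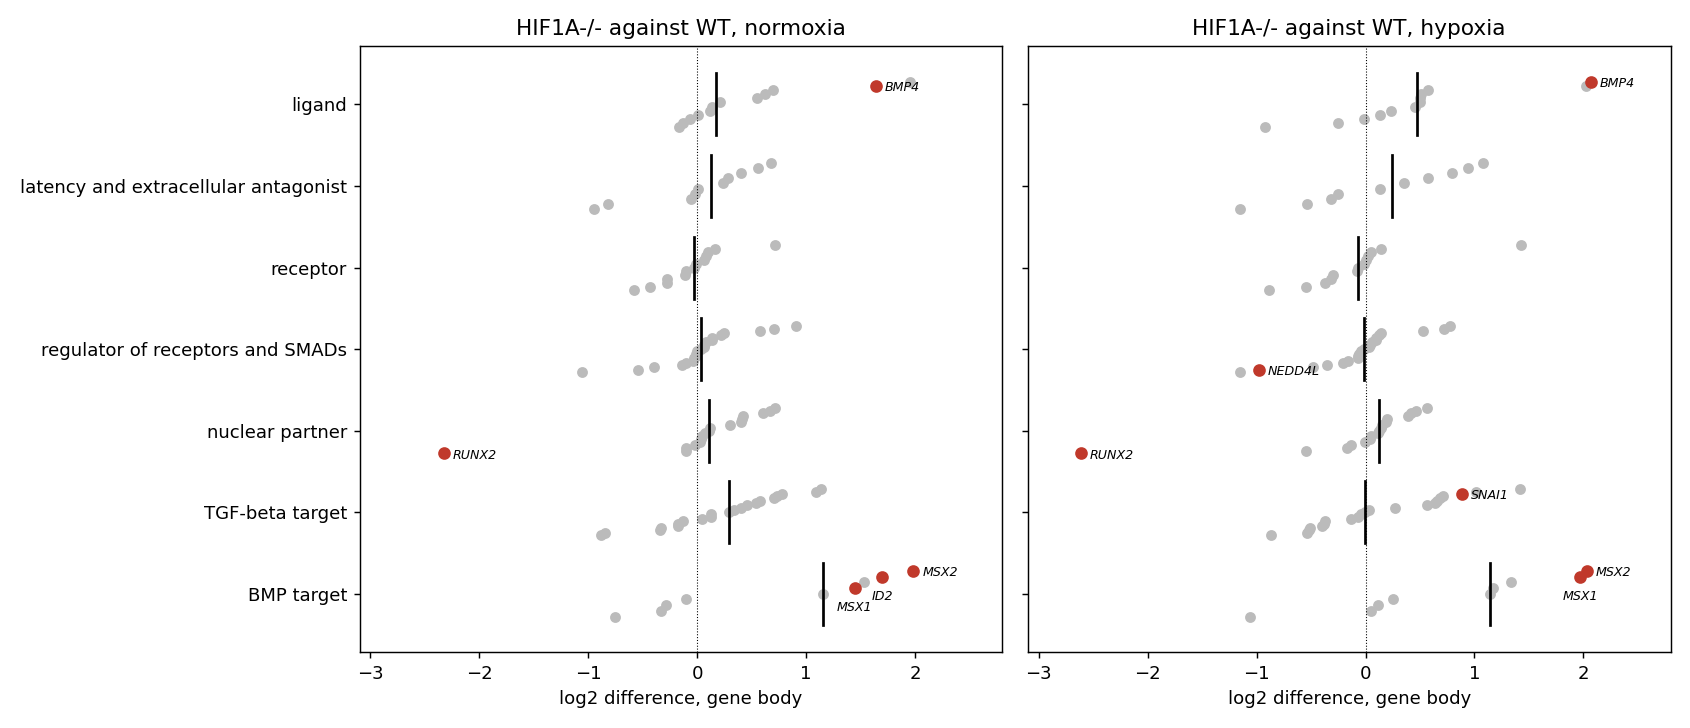
Gene body log2 difference between HIF1A-/- and WT cells (x axis) for each tested gene of the pathway list, by role (y axis), in normoxia and in hypoxia, with genes called by edgeR at FDR 10% in red and black lines at the median of each role. BMP targets have the highest medians, 1.16 and 1.14, and BMP4 and RUNX2 are called in both conditions.

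Few antisense transcripts of these genes had counted reads. SMAD5-AS1 had gene body values of 14.8 to 50.5 CPM over the libraries and 0 reads in its TSS window in all 8, and SMAD1-AS1 and SMAD1-AS2 had 0 reads in every library. SMAD5-AS1 was not called in any comparison without the replicate block. With it, SMAD5-AS1 was called lower in HIF1A-/- than in WT hypoxia (log2 -0.58, edgeR adjusted p = 0.043), and DESeq2 with the block also called it higher in WT hypoxia than in WT normoxia (log2 0.52, adjusted p = 0.098, against 0.15 by edgeR). The paper's account of the PRO-seq counting gives no strand setting, so how reads of SMAD5-AS1 and SMAD5 were assigned was not checked. SMAD1-AS1 and SMAD1-AS2 lie within the SMAD1 gene body, and the part of read assignment in their empty counts was not tested. The SMAD5-AS1 gene body (chr5:135465201-135469578, minus strand) spans the counted start of SMAD5 at position 135468534. Its reads therefore cannot be told from other transcription around that start.

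The gene bodies most like SMAD3 across the 8 libraries, by Pearson correlation of log2 CPM, were DUS4L (0.98), SNUPN (0.98), EPM2A (0.97), ZNF337-AS1 (0.96) and WRN (0.96). For SMAD9 they were SEPT1 (0.99), LOC100507006 (0.99), RAB9A (0.98), CHURC1-FNTB (0.98) and SLC35E3 (0.98). The gene body of LOC100507006 held only 2 to 24 reads per library. Among the 10 genes, SMAD6 and SKIL were most alike (0.95), SMAD3 and SMAD9 had 0.81, and SMAD1 ran opposite to SMAD7 (-0.88). These correlations describe 8 libraries that share depth, replicate number and treatment, and were chosen as the highest of many.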

How the data were processed

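PRO-seq was done on 8 libraries of HCT116 cells. Per the labels and methods, the authors aligned reads to GRCh37/hg19 with HISAT2 2.1.0, kept well-mapped reads with SAMtools 1.5, and deposited raw counts per gene from featureCounts (Subread 1.6.2) for a TSS window of 551 bp and for the gene body, taking 1 TSS per gene by its reads. A gene with several starts is therefore seen through 1 of them.

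The deposited counts were tested with edgeR 4.0.16 (R 4.3.3) by its quasi-likelihood test on 4 group means, with TMM scaling, genes over 0.5 CPM in at least 2 libraries, and Benjamini-Hochberg adjustment over all genes tested, called at an FDR of 10%. The standard error is the log2 difference divided by the square root of F. CPM and RPKM used the total of each table. The pausing index was tested on the counts of both tables in a fit with library terms. DESeq2 1.42.0, other filters, no TMM scaling, the replicate block and leaving out each library were alternatives. With 2 libraries a group, precision is limited.

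Libraries with the same replicate number deviated together from their group means in all 6 pairs of groups (r = 0.481 to 0.789 over gene bodies, 0.216 to 0.518 over TSS windows). On the labels' shared numbers and this check, the numbers were taken to pair the libraries in the alternatives with the replicate block. The main edgeR fit had no replicate term, so its calls do not use this pairing.

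Named were the 10 genes, HIF1A, TGFBR1 to TGFBR3, antisense transcripts, pathway genes called with or without the block (up to 6 a direction), and the 5 gene bodies most correlated with SMAD3 and with SMAD9. Of those called only with the block, the text names those of WT hypoxia and the receptors. The members and lists were chosen with earlier results of these data known. The main edgeR fit was tested on simulated counts for WT hypoxia against WT normoxia, over gene bodies and TSS windows. The other comparisons and fits were not tested in this way.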

Additional observations from a re-analysis of the deposited data

How the results depend on the processing

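The genotype difference of SMAD7 over the gene body kept its direction and its call in both oxygen conditions under all 14 alternatives. The number of the 10 genes called over gene bodies in WT hypoxia, 0 by edgeR, was 2 by DESeq2, 3 with the replicate block and 4 by DESeq2 with the replicate block. In HIF1A-/- hypoxia it went from 0 to 3 by DESeq2 with the replicate block. Between genotypes in hypoxia it went from 1 to 4 with the replicate block and to 3 by DESeq2 with the block. At the TSS between genotypes it went in normoxia from 0 to 1 with no filter and to 1 with the replicate block, and was 0 to 1 leaving out single libraries. In hypoxia it went from 1 to 0 by DESeq2, 2 with no filter, 3 with the block and 2 by DESeq2 with the block, and was 0 to 2 leaving out single libraries. For the pathway list the replicate block gave 4 higher and 3 lower in WT hypoxia (0 and 0 without it), 18 higher and 3 lower between genotypes in normoxia (4 and 1), and 24 higher and 10 lower in hypoxia (4 and 2). Of the tested list these are 3.88% and 2.91%, 17.5% and 2.91%, and 23.3% and 9.71%, against 3.73% and 1.77%, 3.93% and 6.39%, and 13.1% and 15.1% of all gene bodies. Between genotypes DESeq2 gave 10 higher and 1 lower in normoxia and 12 higher and 2 lower in hypoxia. Leaving out single libraries, an alternative chosen after seeing the data, gave 0 to 1 higher in WT hypoxia, 1 to 5 higher and 0 to 1 lower between genotypes in normoxia, and 2 to 5 higher and 0 to 2 lower in hypoxia.

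Leaving out a single library turned the sign of 53 of the 130 comparisons made for the 10 genes, none of them called by edgeR without the block. Among them were the SMAD3 interaction (-0.15 to 0.46 on the log2 scale), the normoxic genotype differences of SMAD3 (-0.35 to 0.059), SMAD9 (-0.54 to 0.14) and SKIL (-0.50 to 0.31), the hypoxic genotype difference of SMAD3 (-0.62 to 0.015), the SMAD6 differences between genotypes in normoxia (-0.33 to 0.84) and hypoxia (-0.18 to 0.69), the SMAD6 interaction (-0.65 to 0.53), the WT response of SKI (-0.44 to 0.019), and at the TSS the WT response of SMAD9 (-0.075 to 3.09) and its normoxic genotype difference, the largest value that turned (-1.22, from -2.52 to 1.13). The causes were not tested. Over all members, tests and alternatives, 1622 of 1760 values kept direction and side of the threshold, 105 turned sign (94 of them leaving out a library, 0 with an adjusted p past the threshold), 26 gained and 7 lost a call. Low counts limit the TSS values of SMAD7, SMAD9 and SKIL, which had at most 28 reads in any library. SMAD7 was counted from 254 bp downstream of its nearest annotated start, and SKIL from 2.281 kb downstream of its most upstream one. The part of depth and of these offsets in the low counts was not tested.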
